A study of Mus musculus with 4 samples.

Results

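Expression of 9 genes was examined: Il1a, Il1b, Il1rn, Il33 and Il18, ligands or a ligand antagonist of the interleukin 1 family, Il1r2 and Il1rl1, receptors of that family, and Il24 and Tslp, cytokines outside it that keratinocytes make. The members were taken by symbol from a deposited expression table, and all 9 were found among 23970 symbols. The libraries were made from primary epidermal keratinocytes of newborn (P0) mice (passage 0). The cells grew in medium low in calcium over a feeder layer of J2-3T3, mouse fibroblasts that no longer divide, and the feeders were taken off before RNA was prepared. There were 2 control and 2 Ovol2-deficient libraries, with no further treatment in either group. Ovol2 encodes a zinc-finger transcription factor of epithelia. The strain, the altered allele and any driver of its deletion are not given in the sources used here, nor whether the 2 libraries of a group came from separate animals, so the p-values measure only the spread between these libraries.

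Interleukin 1 cytokines are alarm signals of the epidermis. Keratinocytes hold IL-1 alpha and IL-33 inside the cell and release them on damage, whereas IL-1 beta and IL-18 are made as precursors that are cut before they act. The antagonist and the decoy receptor hold the response back, and active ligands signal through paired receptor chains and the adaptor MyD88 to NF-kB. IL-24 belongs to the IL-20 subfamily and acts on epithelial cells, and TSLP acts on dendritic and other immune cells and is known from allergic skin disease.

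None of the 9 genes was called different between the groups. Levels are in FPKM as deposited, fragments scaled to transcript length and library size, so they can be set side by side between genes. The test, limma on log2(FPKM + 1), took every gene whose FPKM averaged 1 or more across libraries, and 7 of the 9 members met that minimum. In limma 0 of the 7 passed at an adjusted p under 0.05, against 1.35% of all 11350 tested genes, and 1 of the 7 had an unadjusted p under 0.05, against 17.4%. By the adjusted p of the authors' deposited table, 0 of 7 members passed, against 4.43% of 11582 genes. There 0 had an unadjusted p under 0.05, for which the share over all its genes was not computed. Among the 7 tested members, both deficient values lay above both controls for 4 and below them for 0, against 24.1% and 24.0% of tested genes. With 2 libraries against 2, an exact two-sided permutation test has 0.333 as its smallest p, and the calls depend on the limma model.

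Ovol2 itself stood at 2.68 and 2.14 FPKM in the controls, against 1.45 and 0.941 in the deficient libraries (log2 fold change -0.64, SE 0.18, adjusted p = 0.129 in limma), lower in both but not past the threshold. In the authors' deposited table Ovol2 changed by -0.36 on the log2 scale (adjusted p = 0.441 in the authors' test). The altered stretch of Ovol2 is unknown here, so its level is an incomplete check of the labels. Across the tested genes the libraries correlated at r = 0.986 and 0.987 within groups and 0.972 to 0.981 between them (across genes, which are not independent replicates). Total reads per library are not in the files used here, and the authors' deposited mean normalized counts sum to 13338426 per library. Keratinocyte markers were high (10 genes, summed FPKM of 7152 to 7682 in controls and 5934 to 6968 in deficient libraries). Their median log2 fold change was -0.21, and 0 were called in limma, against 1.35% of tested genes. Krt5, Trp63, Itga6, Itgb4 and Cdh1 had both deficient values below both controls, as did 24.0% of tested genes. The reverse held for 0 of the 10, against 24.1%. Of 4 leukocyte markers, Cd52 was at 0 in every library and the defining gene Ptprc at or under 0.0659 FPKM. Coro1a was at or under 0.0997, and Laptm5 stood at 0.341 to 0.740 FPKM. Macrophage or monocyte markers (7 genes) summed to 22.4 to 30.4 FPKM in controls and 22.95 to 27.2 in deficient libraries. The sums came mainly from Cd68, Lyz2 and Cd14, while Csf1r was at 0.167 to 0.407 FPKM and Itgam at 0.126 to 0.202. Of 5 tested, 0 were called, against 1.35% of tested genes.

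By mean FPKM over the 4 libraries, the order was Tslp (39.1), Il24 (21.6), Il18 (12.97), Il1a (12.8), Il1rn (6.07), Il33 (3.34), Il1rl1 (1.66), Il1r2 (0.237) and Il1b (0.0832). The first 4 were not separated from their neighbours: the ranges of Tslp and Il24, Il24 and Il18, and Il18 and Il1a overlapped. From Il1a down to Il1r2 the ranges of neighbours did not overlap, and each gene was the lower in all 4 libraries. Il1r2 and Il1b overlapped again. Tslp stood at the 80.4th percentile of the tested genes by mean level and Il1a at the 48.2nd.

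**Figure D1:**
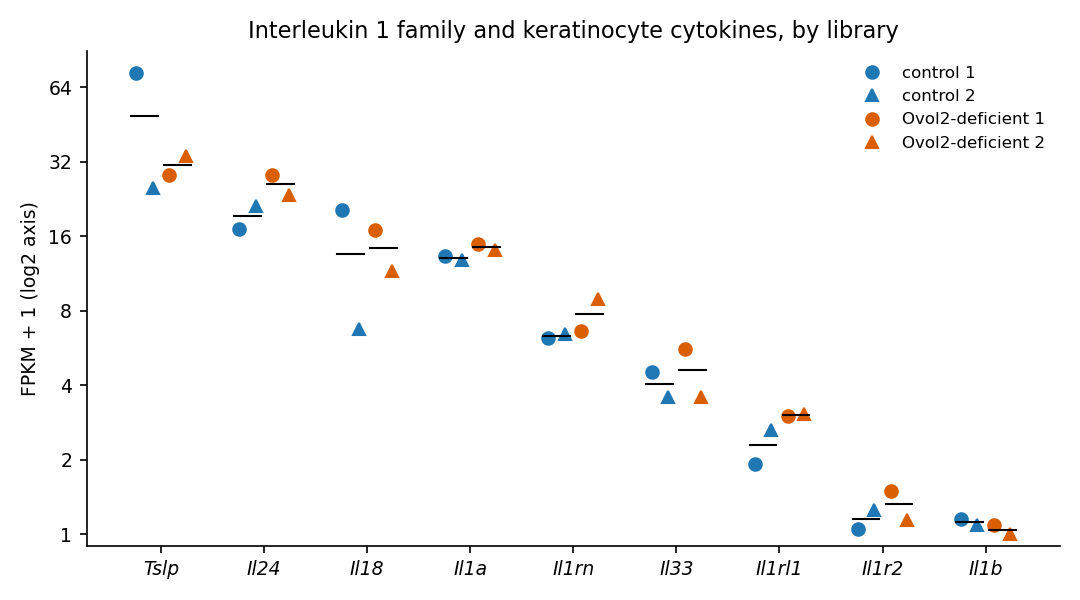
FPKM + 1 on a log2 axis for the 9 genes, ordered by mean level, in the 2 control (blue) and 2 Ovol2-deficient (orange) libraries, with circles for library 1, triangles for library 2 and bars for group means. The 4 points of Il1a lie close together, those of Il18 and Tslp are spread mainly by the controls, and Il1r2 and Il1b lie near the floor.

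Il1a, the interleukin 1 agonist that keratinocytes hold ready, was steady over the libraries. It stood at 12.3 and 11.8 FPKM in the controls, against 13.9 and 13.2 in the deficient libraries (12.1 ± 0.342 and 13.5 ± 0.511, SD, n = 2 per group). Both deficient values lay above both controls, but by little. The log2 fold change was 0.15 (SE 0.10, 95% interval -0.08 to 0.38, adjusted p = 0.492 in limma), so the interval ran from a 0.947-fold to a 1.302-fold level. Intervals here are per gene and not adjusted for the number of genes. In the authors' deposited table Il1a had a mean normalized count of 356 per library and changed by 0.11 on the log2 scale (adjusted p = 0.903).

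Il1b, the second agonist, known mainly from myeloid cells, was barely detected. It was listed at 0.152 and 0.0938 FPKM in the controls, and at 0.0873 and 0 in the deficient libraries. The authors' deposited table gave it a mean normalized count of 1.52, about 6.07 over the 4 libraries together, so a difference between the groups was not detectable at this depth. Without the minimum on FPKM, limma gave a log2 fold change of -0.11 (adjusted p = 0.504).

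The genes of the 2 agonists are neighbours. On mm10, with GENCODE M21 annotation, Il1a (ENSMUSG00000027399.1) occupies chromosome 2, 129299610 to 129309972, and Il1b (ENSMUSG00000027398.13) 129364570 to 129371139, both on the minus strand and 54597 bases apart. Their upstream sequences are shown because these neighbours had the fourth highest and the lowest level of the 9. The 250 bases before each start site are from RefSeq (GRCm38.p6, minus strand, chr2:129309973-129310222 for Il1a and chr2:129371140-129371389 for Il1b), 5′ to 3′, with a match to the AP-1 motif TGANTCA in capitals.
Il1a: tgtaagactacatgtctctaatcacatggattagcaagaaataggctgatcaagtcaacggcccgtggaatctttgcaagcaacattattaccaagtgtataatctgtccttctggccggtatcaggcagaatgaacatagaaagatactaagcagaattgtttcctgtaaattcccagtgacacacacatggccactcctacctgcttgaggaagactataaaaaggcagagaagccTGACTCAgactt
Il1b: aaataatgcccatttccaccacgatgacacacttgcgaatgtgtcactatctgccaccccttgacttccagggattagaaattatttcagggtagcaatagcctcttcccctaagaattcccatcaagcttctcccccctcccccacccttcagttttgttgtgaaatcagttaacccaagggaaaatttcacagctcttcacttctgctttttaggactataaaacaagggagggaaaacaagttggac

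The AP-1 match in Il1a ran from 12 to 6 bases before the start. Motifs were searched on both strands of the 11 such windows found for 7 members (Il24 and Tslp had none in the table). The Ovol family core CCGTTA was in 0 of the 11, against 2.18% of all 32851 windows of this length. TGANTCA was in 2, those of Il1a and 1 of 3 of Il1rn, against 6.75%. A loose NF-kB pattern was in 2, both of Il1rn, against 45.8%. A match describes letters in this window and is not a binding site.

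Il1rn, the receptor antagonist, stood at 5.21 and 5.45 FPKM in the controls, against 5.64 and 7.96 in the deficient libraries (5.33 ± 0.170 and 6.80 ± 1.64). Deficient library 2 was the high one, and the groups did not overlap. On the log2 scale the difference was 0.28 (SE 0.16, 95% interval -0.09 to 0.66, adjusted p = 0.419 in limma), and it was 0.07 without deficient library 2 and 0.50 without deficient library 1. The gene (ENSMUSG00000026981.15, chromosome 2, 24336853 to 24351494, plus strand) has 3 start-site groups in the table but a single value, so the secreted and intracellular forms of the antagonist, which differ in their first exon, were not told apart. The FPKM of Il1rn divided by that of Il1a was 0.423 and 0.461 in the controls, against 0.406 and 0.605 in the deficient libraries, values that overlap (exact two-sided permutation p = 1).

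Il1r2, the decoy receptor that binds interleukin 1 without signalling, was low and variable, at 0.0523 and 0.251 FPKM in the controls, against 0.499 and 0.144 in the deficient libraries. The groups overlapped. It lies on chromosome 1, 40074079 to 40125231 (ENSMUSG00000026073.13, plus strand), and the authors' deposited table gave it a mean normalized count of 5.51. At such counts no difference was detectable, and without the minimum on FPKM limma gave a log2 fold change of 0.19 (adjusted p = 0.67).

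Il33 and its receptor gene Il1rl1 were both expressed at low levels. Il33 (ENSMUSG00000024810.16, chromosome 19, 29925114 to 29960718, plus strand), the nuclear alarmin, stood at 3.52 and 2.59 FPKM in the controls, against 4.64 and 2.59 in the deficient libraries (3.05 ± 0.655 and 3.62 ± 1.44). Library 1 was the higher in each group and the groups overlapped. Il33 differed by 0.16 on the log2 scale (SE 0.23, 95% interval -0.38 to 0.70, adjusted p = 0.790 in limma), and its direction depended on the libraries, at -0.16 without deficient library 1 and -0.01 without control 2.

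Il1rl1, which encodes the IL-33 receptor ST2 in a membrane and a soluble form, stood at 0.928 and 1.65 FPKM in the controls, against 2.02 and 2.05 in the deficient libraries (1.29 ± 0.508 and 2.04 ± 0.0253). Both deficient values lay above both controls, and control 1 was the low one. In limma the log2 difference was 0.43 (SE 0.19, 95% interval -0.01 to 0.87, adjusted p = 0.301). Without control 1 it was 0.20, and without control 2 it was 0.66. The table lists 2 start-site groups for Il1rl1 (ENSMUSG00000026069.15, chromosome 1, 40429570 to 40465415, plus strand) with a single value, so the forms were not told apart.

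Il33 and Il1rl1 are also known from cells other than keratinocytes, Il1rl1 from mast cells, innate lymphoid cells and cultured mouse fibroblasts. Of 8 mast cell or innate lymphoid markers, 5 were listed at 0 in every library, among them the mast cell genes Cpa3, Tpsb2 and Mcpt4. The other 3 were detected. Kit stood at 0.400 and 0.383 FPKM in the controls, against 0.601 and 0.667 in the deficient libraries. Gata2 stood at 0.217 and 0.393 against 0.669 and 0.394. Gata3, which keratinocytes also express, stood at 10.2 to 12.8. Fibroblast or feeder markers were present, with a summed FPKM over 16 genes of 306.8 to 326.1 in controls and 415.5 to 441.7 in deficient libraries. Of 13 tested, 2 rose in limma, Loxl1 and Pcolce, against 0.837% of tested genes, and all 13 had both deficient values above both controls, against 24.1%, with a median log2 fold change of 0.50. None of the 16 was at 0 in all libraries, though the fibroblast gene Lum was at 0.0782 or less and Dcn at 1.003 or less. Melanocyte markers (6 genes) summed to 60.8 to 66.4 in controls and 82.0 to 88.4 in deficient libraries. Of 5 tested, 0 were called in limma, against 1.35% of tested genes. All 5 had both deficient values above both controls, against 24.1%, with a median log2 fold change of 0.36. The part of such cells in the values of Il33, Il1rl1 and the genes below was not tested, and in bulk RNA more cells of a type and more RNA per cell cannot be told apart.

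Il18, which keratinocytes make as a precursor all the time, varied more within the groups than between them. It stood at 19.5 and 5.77 FPKM in the controls, against 15.96 and 10.6 in the deficient libraries (12.6 ± 9.71 and 13.3 ± 3.76). Control 1 was 3.38-fold above control 2, and the deficient libraries lay between them. The log2 fold change was 0.26 (SE 0.46, 95% interval -0.82 to 1.33, adjusted p = 0.840 in limma), and the controls set it: without control 1 it was 1.05 and passed (adjusted p = 0.0351), without control 2 it was -0.54 (adjusted p = 0.248), and without deficient library 1 it was -0.02. The authors' deposited table gave 0.02 (adjusted p = 0.991). Il18 lies on chromosome 9, 50554827 to 50581840 (ENSMUSG00000039217.13, plus strand). The suprabasal keratin Krt10 also differed within groups, at 23.2 and 3.85 FPKM in the controls, against 43.9 and 19.6 in the deficient libraries, higher in library 1 of each group as Il18 was. Krt1 and Krt15 were looked up with it, after the members' values were seen. Krt1 stood at 9.71 and 1.77 FPKM in the controls, against 17.8 and 6.999 in the deficient libraries. Krt15 stood at 41.9 and 13.1 against 21.90 and 21.98 FPKM, higher in library 1 in the controls only. The part of these keratins in the value of Il18 was not tested.

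Il24 was the member nearest to the threshold. This cytokine, known to be induced in wounded epidermis, stood at 16.2 and 20.3 FPKM in the controls, against 27.3 and 22.5 in the deficient libraries (18.3 ± 2.91 and 24.9 ± 3.41). Both deficient values lay above both controls. The log2 fold change was 0.43 (SE 0.14, 95% interval 0.10 to 0.76, a 1.07-fold to 1.695-fold level), with an unadjusted p of 0.0176 and an adjusted p of 0.176 in limma, so it did not pass over all genes. Leaving out each library in turn gave Il24 values of 0.28 to 0.59 (adjusted p of 0.0987 to 0.559). In the authors' deposited table it was 0.28 (adjusted p = 0.545) at a mean normalized count of 287. Il24 lies on chromosome 1, 130882074 to 130887454 (ENSMUSG00000026420.16, minus strand).

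Tslp had the highest mean level of the 9, and its controls lay far apart. It stood at 72.2 and 24.0 FPKM in the controls, against 27.3 and 32.9 in the deficient libraries (48.1 ± 34.1 and 30.1 ± 3.94). Control 1 was 3.01-fold above control 2, and the other 3 libraries lay within 24.0 to 32.9. The log2 fold change was -0.47 (SE 0.42, 95% interval -1.46 to 0.53, adjusted p = 0.648 in limma). Without control 1 it turned to 0.31 (adjusted p = 0.299), and without control 2 it was -1.24 and passed (adjusted p = 0.0167). The table lists 2 start-site groups for Tslp with a single value, so the transcripts of its long and short forms, known from human, were not told apart.

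**Figure D2:**
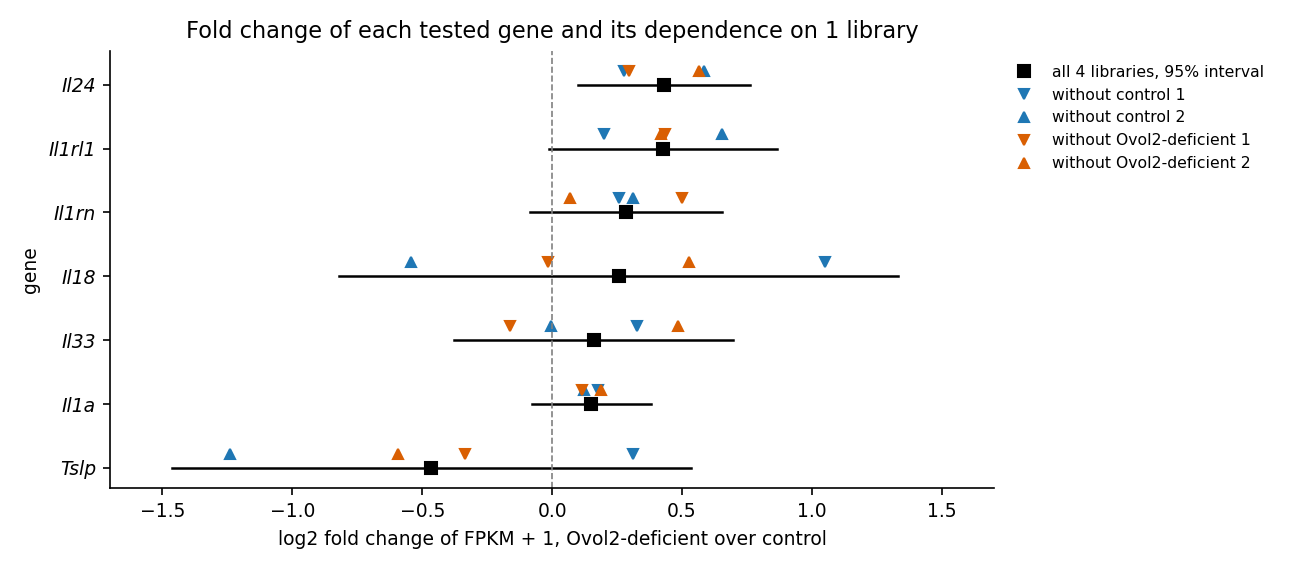
Log2 fold changes of FPKM + 1, Ovol2-deficient over control, for the 7 tested genes, as squares with 95% intervals from limma, and above each the values with 1 library left out (blue triangles for a control, orange for a deficient library). The points of Il1a stay between 0.12 and 0.19, while those of Il18 run from -0.54 to 1.05 and those of Tslp from -1.24 to 0.31.

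The genes whose profile was nearest to each member were sought among the 8760 or 8761 other genes averaging 5 FPKM or more, by Euclidean distance between values of log2(FPKM + 1) centred on each gene's mean over the 4 libraries. Nearest to Il24 were Cxcl5, a neutrophil chemokine (distance 0.0701), Serpinb9b (0.0845) and Gpr137b (0.0952). Cxcl5 ran from 72.9 and 96.9 FPKM in the controls to 123.3 and 103.02 in the deficient libraries, the same order of libraries as Il24. Nearest to Il18 were Dsg1a, a desmosomal cadherin of differentiating epidermis (0.0867), Sprr2b, a cornified envelope precursor (0.279), and Stfa1, a cysteine protease inhibitor (0.338). Dsg1a stood at 15.3 and 4.13 FPKM in the controls, against 12.999 and 8.23 in the deficient libraries. Nearest to Tslp were the iron exporter gene Slc40a1 (0.310), Snrpn (0.381) and Sostdc1, a BMP and Wnt antagonist (0.393), and 0 genes lay within a distance of 0.2 of Tslp.

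For Il1a, which varied little, 550 genes lay within a distance of 0.1, the nearest being Ttc1 (0.00799), Glmn and Sdhaf2. Il1rn was nearest to Tmem38b (0.0672), Sptbn1 and Mmd. Il1rl1 was nearest to Osgin1 (0.0733), Tagln, an actin-binding gene of smooth muscle and fibroblasts (0.0810), and Irs2. Il33 was nearest to Bnipl (0.108), Agrp and Endou. These distances rest on 4 libraries and are descriptions.

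**Figure D3:**
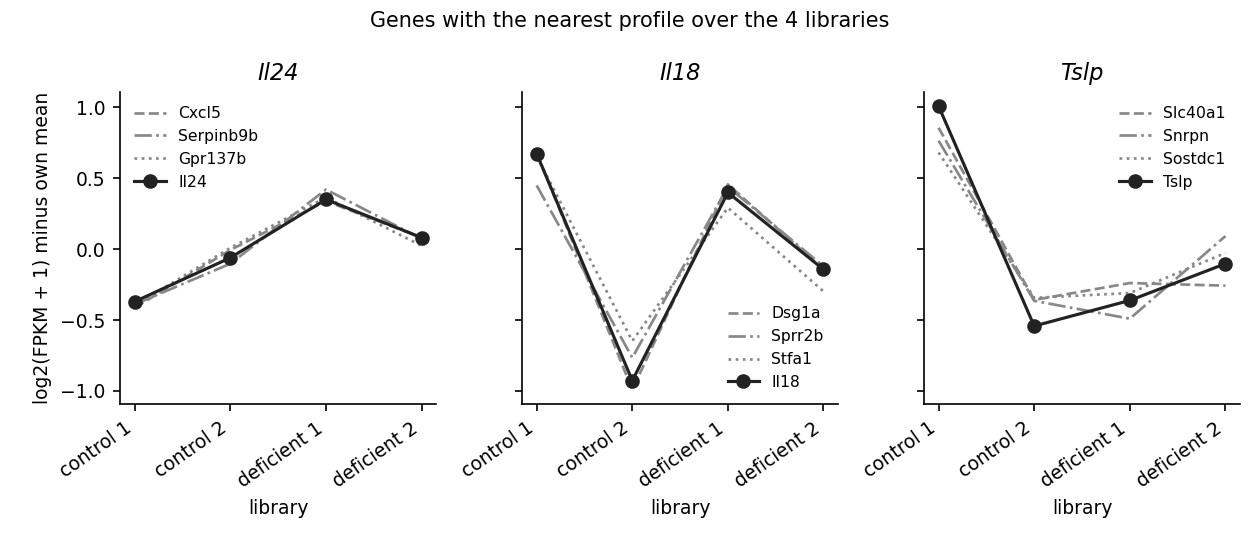
Values of log2(FPKM + 1) in the 4 libraries, centred on each gene's own mean, for Il24, Il18 and Tslp (black) and their 3 nearest genes (grey), with lines that only join the values of a gene. Il24 is lowest in control 1, Il18 is low in control 2, and Tslp is high in control 1.

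The ligands of the IL-36 group, which also belong to the family, stood higher in the deficient libraries without passing in limma. These ligands signal through Il1rl2 and the shared chain Il1rap and are made by differentiating and inflamed keratinocytes. The list of other ligands and antagonists held 6 measured genes, of which 3 were tested and 0 called in limma, against 1.35% of tested genes. Under the minimum were Il1f6, Il1f10 and Il18bp. Il1f10 stood at 0 and 0.137 FPKM in the controls, against 0 and 0.123 in the deficient libraries, so the groups overlapped. Il18bp stood at 0.706 and 0.622 against 0.744 and 1.53 FPKM. All 3 tested genes had an unadjusted p under 0.05, against 17.4% of tested genes, with a median log2 fold change of 1.01 beside -0.0014 for all tested genes. In the authors' deposited table these 3 were all called higher, against 2.33% of its genes.

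Il1f9 (IL-36 gamma) stood at 5.21 and 4.83 FPKM in the controls, against 13.7 and 8.94 in the deficient libraries (log2 fold change 1.01, SE 0.18, adjusted p = 0.0545 in limma, and 0.00309 in the authors' deposited table). Il1f8 (IL-36 beta) stood at 2.28 and 0.222 against 4.80 and 3.25 FPKM (1.31, SE 0.42, adjusted p = 0.168; 0.0242 in the authors' deposited table). The antagonist Il1f5 (IL-36Ra) stood at 4.07 and 1.91 against 9.31 and 4.19 FPKM (0.93, SE 0.36, adjusted p = 0.242; 0.0253 in the authors' deposited table). All 3 tested genes, agonists and antagonist, were thus higher in each deficient library than in either control, against 24.1% of tested genes. For Il1f5 the gap was small, 4.19 FPKM in deficient library 2 against 4.07 in control 1. Il1f6 (IL-36 alpha) was under the minimum, at 0.172 and 0 FPKM in the controls, against 0.960 and 0.637 in the deficient libraries. The IL-36 calls depended on the settings and the libraries. With all 4 libraries Il1f9 passed with a pseudocount of 0.1 (adjusted p = 0.0462) and with a minimum mean of 5 FPKM (adjusted p = 0.0353). Without control 1, Il1f8 (log2 fold change 2.02, adjusted p = 0.00516) and Il1f9 (1.05, adjusted p = 0.0407) passed, and without deficient library 1 the changes were 1.09, 0.72 and 0.43 for Il1f8, Il1f9 and Il1f5, and none passed. Without control 2 that of Il1f8 was 0.60. With the replicate number as a block all 3 passed, at adjusted p of 0.0325 for Il1f8, 0.0177 for Il1f9 and 0.0168 for Il1f5. In each group library 1 had the higher value of all 3, as it did of Krt10 and Krt1, and of Krt15 in the controls only. The part of these keratins was not tested.

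The tested receptor chains differed little. Of 8 measured genes 3 were tested and 0 called in limma, against 1.35% of tested genes. At an unadjusted p under 0.05 in limma there were 0 of the 3, against 17.4%. The authors' deposited table called 0 of the 3, against 4.43% of all its genes. Il1r1, the signalling receptor for interleukin 1, stood at 9.29 and 10.3 FPKM in the controls, against 9.505 and 9.28 in the deficient libraries (log2 fold change -0.05, 95% interval -0.30 to 0.20). Il1rap, the shared accessory chain, stood at 7.78 and 8.27 against 9.02 and 8.95 FPKM (0.15, 95% interval -0.10 to 0.39). Il1rl2, the IL-36 receptor chain, stood at 9.13 and 7.89 against 7.65 and 8.11 FPKM (-0.10, 95% interval -0.37 to 0.17). The IL-18 receptor chain Il18r1 was under the minimum, at 0.414 to 0.593 FPKM over the 4 libraries.

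Genes for processing and release numbered 11 tested, of which 0 were called in limma, against 1.35% of tested genes. At an unadjusted p under 0.05 in limma there were 4, against 17.4%. The list median was 0.03. Casp1, the protease that matures IL-1 beta and IL-18, was at 0.134 FPKM or less in every library, and the inflammasome sensor Nlrp3 at 0.0322 or less. Pycard, the inflammasome adaptor, stood at 3.25 and 2.72 against 1.77 and 2.12 FPKM (log2 fold change -0.43, adjusted p = 0.192 in limma). Gsdma, a pore-forming gasdermin of the epidermis, stood at 4.64 and 3.33 against 14.8 and 8.18 FPKM (1.28, adjusted p = 0.0598 in limma). In the authors' deposited table Gsdma was the 1 called gene of 12 in this list (adjusted p = 3.1e-06), against 4.43% of all its genes. Gsdma passed in limma with a minimum mean of 5 FPKM (adjusted p = 0.0406), without control 1 (adjusted p = 0.0295) and with the replicate number as a block (adjusted p = 0.00708). The gasdermin Gsdme, under its older symbol Dfna5, differed by 0.44 (log2, adjusted p = 0.238 in limma). Gsdmd, also among the 4, stood at 3.00 and 3.74 against 4.44 and 5.27 FPKM (log2 fold change 0.42, adjusted p = 0.192 in limma).

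Of 27 adaptors, kinases and NF-kB genes, all tested, 0 were called in limma, against 1.35% of tested genes. The authors' deposited table also called 0, against 4.43% of its genes. The list median was 0.01. At an unadjusted p under 0.05 in limma there were 3, no larger a share than the 17.4% of all tested genes. Those 3 were the NF-kB subunit gene Rel (log2 fold change -0.45, adjusted p = 0.110), the kinase gene Irak2 (0.37, adjusted p = 0.125) and Tnip1, an inhibitor of NF-kB signalling (0.37, adjusted p = 0.168). Of the IL-20 subfamily, the TSLP and IL-20 type receptors and their JAK and STAT partners, 11 were tested. Of these, 0 were called in limma, against 1.35% of tested genes, and 0 in the authors' deposited table, against 4.43% of its genes. At an unadjusted p under 0.05 in limma there were 0, against 17.4%. The TSLP receptor chain Crlf2 was present at 10.8 to 12.3 FPKM, while its partner Il7r was at 0.0241 FPKM or less. Of the receptor chains for IL-24, Il20rb stood at 2.23 to 2.41 and Il22ra1 at 1.59 to 1.97 FPKM, while Il20ra was at 0.120 or less. The largest differences in that list were those of Stat5a (log2 fold change 0.27), Jak1 (0.20) and Il10rb (-0.14).

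**Figure D4:**
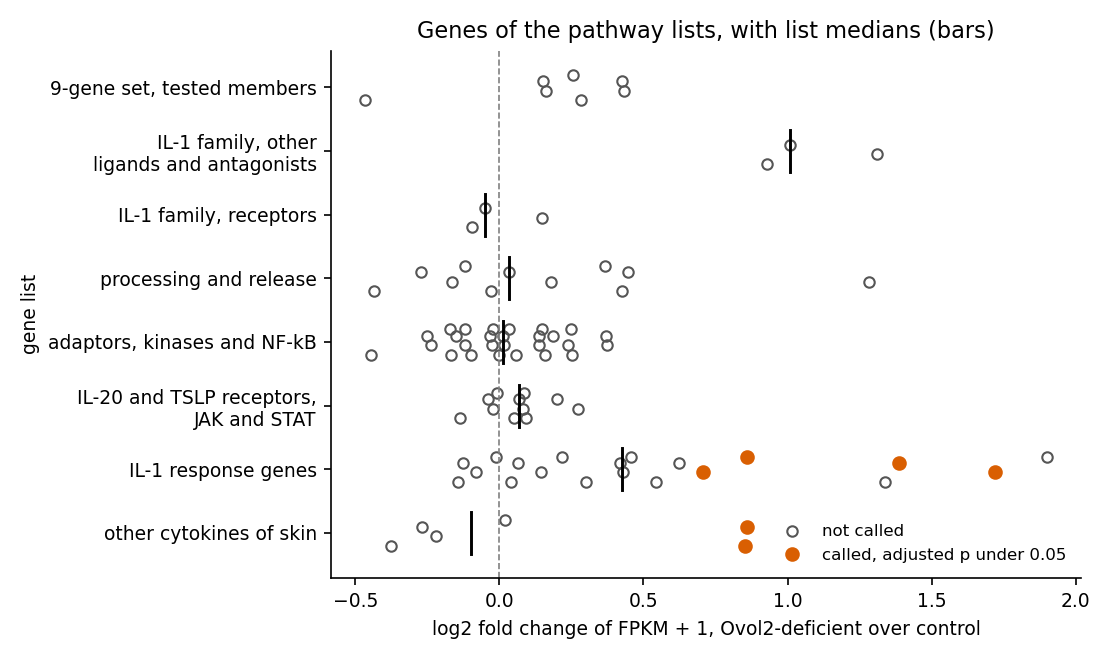
Log2 fold changes of FPKM + 1, Ovol2-deficient over control, for the tested genes of each list, filled where called in limma, with bars at the medians of the 7 pathway lists. The receptor, adaptor and IL-20 or TSLP receptor lists centre near 0, and the called genes are all on the higher side.

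Among keratinocyte genes known to respond to interleukin 1, 4 of 20 tested rose in limma and 0 fell, against 0.837% and 0.511% of tested genes, and 16 did not pass. The list median was 0.43, and 11 of the 20 had both deficient values above both controls, against 24.1%. The list was chosen with earlier results of these data known, so these shares are descriptions and not a test of a response. Il6, a cytokine that interleukin 1 induces, stood at 4.66 and 4.75 FPKM in the controls, against 9.06 and 9.64 in the deficient libraries (log2 fold change 0.86, SE 0.11, adjusted p = 0.0353). In the authors' deposited table Il6 did not pass (0.55, adjusted p = 0.0914). Lcn2, an iron-binding antimicrobial gene, stood at 82.4 and 83.3 against 123.7 and 149.4 FPKM (0.71, SE 0.11, adjusted p = 0.0422).

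The calprotectin genes showed the largest rises among the called genes of this list. S100a8 stood at 38.8 and 30.1 FPKM in the controls, against 118.8 and 69.6 in the deficient libraries (1.39, SE 0.24, adjusted p = 0.0482 in limma), and S100a9 at 24.0 and 17.5 against 90.6 and 53.8 (1.72, SE 0.24, adjusted p = 0.0392). Both are also genes of stressed and differentiating epidermis. The authors' deposited table called 4 of 20 genes of the list higher, against 2.33% of all its genes. They were Lcn2, S100a8, S100a9 and the defensin Defb4 (adjusted p = 0.0433 there, 0.101 in limma). The chemokine Cxcl1 stood at 174.4 and 102.2 against 182.9 and 177.7 FPKM (log2 fold change 0.43, adjusted p = 0.381), and it passed without control 1 (0.81, adjusted p = 0.0213), when 8 of the list did. Without deficient library 1 none of the list was called, without deficient library 2 it was 2, and without control 2 it was 2. Its count was 0 under quantile normalization, in limma without its variance trend or without the minimum on FPKM.

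Of 18 other skin cytokines 6 were tested, and 2, Il6 and Csf1, were called higher, against 0.837% of tested genes. Csf1, the macrophage growth factor gene, stood at 15.8 and 19.3 FPKM in the controls, against 33.0 and 31.8 in the deficient libraries (log2 fold change 0.85, SE 0.11, adjusted p = 0.0391 in limma, and 6.34e-07 in the authors' deposited table). Tnf stood at 2.82 and 1.499 against 1.35 and 1.42 FPKM (-0.37, adjusted p = 0.434). The median of the 6 was -0.10. Without either deficient library neither Il6 nor Csf1 passed (adjusted p of 0.179 to 0.21). Il6 and Csf1 are also made by fibroblasts, whose markers are given above.

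**Figure D5:**
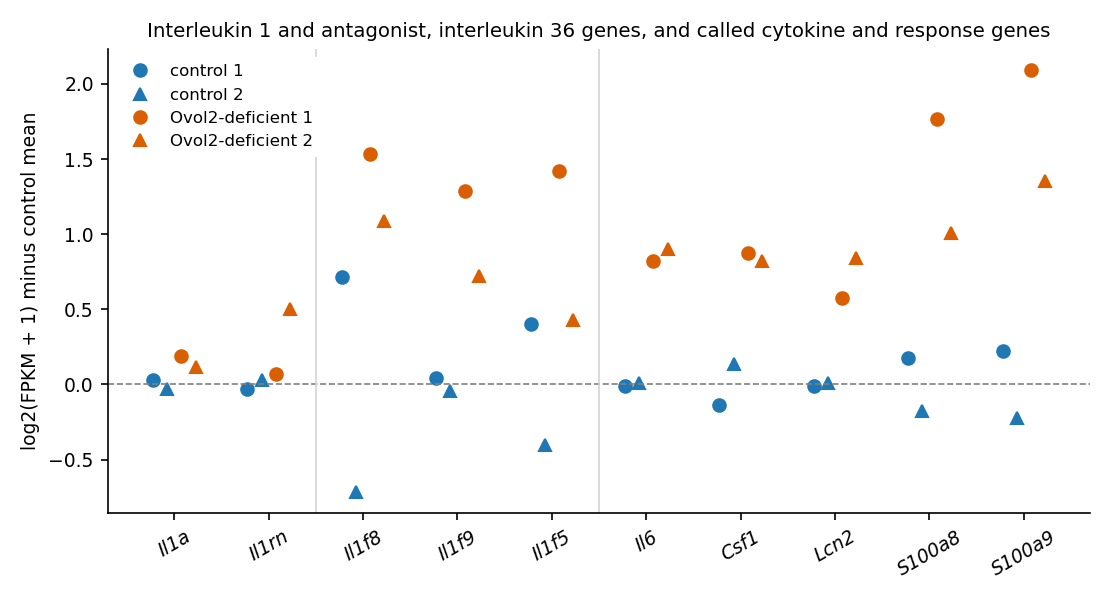
Values of log2(FPKM + 1) minus the control mean in each library, for Il1a and its antagonist Il1rn, the 3 tested IL-36 genes, and the 5 called genes of the cytokine and response lists. The deficient values of Il1a stay within 0.2 of the control mean, and those of Il6, Csf1, Lcn2, S100a8 and S100a9 lie above both controls.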

How the data were processed

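RNA was measured in 2 control and 2 Ovol2-deficient keratinocyte libraries. Trizol RNA was turned into amplified full-length cDNA and tagmented (Nextera), per the labels' protocols, with no strand stated. TopHat, HTSeq and mm10 are named, without versions, per the submitters' processing notes. FPKM values (24487 rows) and a comparison of mutant with control were deposited by the authors. Per the file headers that comparison holds a mean normalized signal (called mean normalized count here), a log2 fold change with its error, p-values and a score from the authors' own test. Its fold changes lie nearer 0 for low genes. Mutant columns were assigned to the group only, with the table's numbers.

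The 27 rows whose symbols had become dates were dropped, and rows of 1 symbol were summed. Between 5 and 13 of 11350 values were identical between any 2 libraries. Tests used limma 3.58.1 in R 4.3.3 on log2(FPKM + 1), with group as the only term, a variance trend, and Benjamini-Hochberg adjustment over all tested genes at 0.05; the fit was tested on simulated data. Fold changes on this scale understate changes of low genes. No count test was used, since no file holds counts, and depth per library is unknown. The members and lists were chosen with earlier results of these data known, so list counts set beside the shares of all genes are descriptions. Named genes were the members, Ovol2, some receptors, processing genes and targets, and in each list the called genes or else the 3 largest changes. Krt1, Krt10 and Krt15 were looked up after the members' values were seen. Alternatives were pseudocount 0.1, other minimums, quantile normalization, no variance trend, a replicate block, and each library left out.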

Additional observations from a re-analysis of the deposited data

How the results depend on the processing

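For the 9 cytokine and receptor genes, the count called stayed at 0 in every alternative that kept all 4 libraries, and was 0 to 1 with a library left out (Il18 without control 1, Tslp without control 2). Of 68 recomputed fold changes of the tested members, 63 kept their direction. The 5 that reversed were Tslp without control 1 (0.31), Il18 without control 2 (-0.544) and without deficient library 1 (-0.0158), and Il33 without control 2 (-0.00537) and without deficient library 1 (-0.164); Il1r1 also reversed without control 2 (0.0135). With a library left out, values ran from -1.24 to 0.31 for Tslp, -0.544 to 1.05 for Il18, -0.164 to 0.485 for Il33 and -0.116 to 0.0135 for Il1r1. The list genes called numbered 5, and 0 under quantile normalization, without the variance trend or without the minimum on FPKM, and 0 to 12 with a library left out. Over all genes the count was 153 (95 higher), 5 under quantile normalization (all 5 higher), 6 without the variance trend, 3 without the minimum, 267 with a minimum of 5, and 10 to 397 with a library left out; the cause was not tested. With the replicate number as a block, 518 genes and 11 list genes were called. The differences between library 1 and library 2 correlated at 0.22 across genes between the groups, but the labels do not say that a number marks shared material and there are only 2 pairs, so the numbers were not taken as pairing. A fit without a library leaves a group with a single library, assumed to vary like the other group. Depth limits Il1b and Il1r2, and with 2 libraries per group a missed threshold does not show equal levels.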
